A study of Mus musculus with 8 samples.

Results

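The genes described are 8 that encode proteins writing or reading 5-methylcytosine (m5C) in RNA: the methyltransferases Nsun2, Nop2, Nsun4, Nsun5, Nsun6 and Trdmt1 and the reader proteins Alyref and Ybx1. The data on them are the RNA-binding peaks of 4 CLIP libraries (crosslinking and immunoprecipitation followed by sequencing) whose midpoint lay in the body of any of these genes, on the gene's own strand, in the GENCODE M21 annotation of the mouse build mm10. Of 29555 peaks in the 4 libraries, 41 met this rule. Merged where they overlapped on the same strand, they formed 16 sites in 5 of the 8 genes, out of 12074 sites in all.

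RNA m5C is set by methyltransferases of the NOP2/Sun family, which act on transfer RNA, ribosomal RNA, messenger RNA and mitochondrial RNA, and by TRDMT1, which resembles the DNA methyltransferases but methylates transfer RNA. The mark is read by proteins that prefer methylated RNA: ALYREF, an mRNA export adaptor, and YBX1, a cold-shock domain protein that packages and stabilises mRNA. MBD5 and MBD6, the proteins that were precipitated here, carry a methyl-CpG-binding-like domain and associate with the complex that removes ubiquitin from histone H2A. What is measured below is contact of MBD5 or MBD6 with the transcripts of the writer and reader genes, and not the activity or the amount of the proteins that these genes encode.

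The libraries came from wild-type mouse embryonic stem cells (mESC) that stably overexpressed the human coding sequence of MBD5 or of MBD6 with a 3xFlag tag, delivered by lentivirus and kept under hygromycin B. All cells grew in serum medium with LIF and the inhibitors CHIR99021 and PD0325901, so the precipitated protein was in every library an added human protein in mouse cells with their own Mbd5 and Mbd6. There were 2 Flag-MBD5 and 2 Flag-MBD6 CLIP libraries, and a digested input for each, which was not analysed here as a sample. The labels name a Flag antibody among the sample characteristics and an antibody against MBD6 in the extraction protocol, give "embryos" as the tissue beside a cell line, and do not say whether the replicates were separate cultures. The study's methods name the Flag antibody.

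The peak lists held 5362 and 5388 peaks with Flag-MBD5 and 9218 and 9587 with Flag-MBD6. The number of reads behind them, estimated from the lists, was 478790 and 500143 with Flag-MBD5 and 983918 and 1111742 with Flag-MBD6, a ratio of 2.14. The smallest number of reads at the summit of any peak was 5 with Flag-MBD5 and 6 with Flag-MBD6, in both replicates. Over 3566 sites present in all 4 libraries, the replicates of a protein differed by less than the sampling noise (chi-square per degree of freedom 0.555 with Flag-MBD5 and 0.539 with Flag-MBD6), so each protein was counted as 1 sample and no test over libraries was made. Where a gene lacks a peak, no signal on it reached the q threshold given the reads available, which does not measure absent binding, and the level of the transcript was not analysed here.

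The peaks fell on Nsun2, Nop2 and Ybx1 in every library and on few of the other genes. The best-covered stretches of these 3 transcripts are shown as DNA letters in the sense of the RNA, read from the GENCODE M21 transcripts. These are the 11 sites that both libraries of at least 1 protein contained. Each run begins with the base just before the 5′ end of the site, in capitals, and continues into the site; every CpG after that base is also in capitals, since CpG is the dinucleotide that methyl-CpG-binding domains recognise in DNA. The study describes MBD5 and MBD6 as not binding DNA and reports that both prefer RNA with m5C, so CpG is marked as a description only. Positions are mm10 coordinates of the merged site.
Nsun2 site 2, chr13:69612308-69612514, plus strand: GaaggtggctatccCGagatCGtaaaggag
Nsun2 site 3, chr13:69615413-69615562, plus strand: Gtaccctgaagaacttgcctggcatacaaa
Nsun2 site 4, chr13:69630671-69630863, plus strand: GttaaccCGaaccacagaaggaaagaagCG
Nsun2 site 5, chr13:69631564-69631736, plus strand: CaagaatcatcactgtatcaatggaagaCG
Nop2 site 1, chr6:125132229-125132378, plus strand: GatcctaCGaagaaggagaagCGtggaccc
Nop2 site 2, chr6:125137051-125137230, plus strand: Gtcctgtggaatgaagaggacactgatgaa
Nop2 site 3, chr6:125137341-125137519, plus strand: CacaagCGgatccaggacatCGtgggagtg
Nop2 site 4, chr6:125137671-125137829, plus strand: GccaatcacccttCGgaccaacaccttgaa
Nop2 site 5, chr6:125140845-125141002, plus strand: GtcatctccaaagaccctgctgtgaagaCG
Ybx1 site 2, chr4:119278818-119279187, minus strand: Gccaaagacagcctagagaggatggcaatg
Ybx1 site 3, chr4:119278013-119278308, minus strand: Gattggagctgaagaccttaagtgcttgct

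Most runs open with G and are rich in A, and 7 of the 11 hold a CpG. For Nop2 site 2 the run is given from the 5′ end in the Flag-MBD5 libraries, position 125137057, because the merged site begins in the intron before the exon.

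Across the 8 genes, Flag-MBD5 had 6 and 9 peaks in its libraries and Flag-MBD6 had 13 in each. Nsun2 (chr13:69533746-69635780) had 4 and 3 peaks with Flag-MBD5 and 4 and 5 with Flag-MBD6. Nop2 (chr6:125131909-125144753) had 1 and 3 with Flag-MBD5 and 5 in each Flag-MBD6 library. Ybx1 (chr4:119277981-119294604) had 1 and 3 with Flag-MBD5 and 2 in each Flag-MBD6 library. Thus Nsun2 and Nop2 together gave most of the peaks in either protein, and Nop2 was the gene whose count differed most between them.

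Nsun5 (chr5:135369953-135376805) had 2 peaks, both in Flag-MBD6 replicate 1. Alyref (chr11:120592121-120598365) had 1 peak, in Flag-MBD6 replicate 2. No peak was called on Nsun4 (chr4:116032842-116053876), Nsun6 (chr2:14995131-15055069) or Trdmt1 (chr2:13509014-13544668) in any of the 4 libraries. The genes without a reproducible peak therefore include the methyltransferases of mitochondrial ribosomal RNA (Nsun4), cytoplasmic ribosomal RNA (Nsun5), transfer RNA and mRNA (Nsun6) and transfer RNA (Trdmt1).

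**Figure D1:**
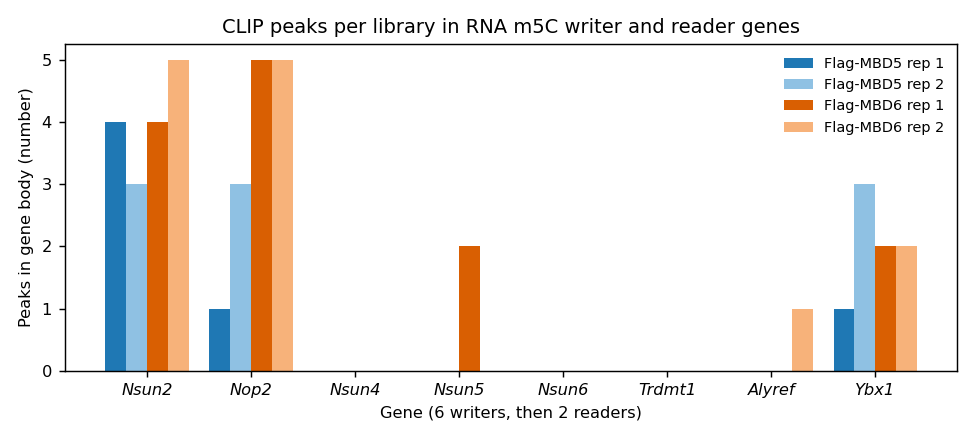
Bars give the number of CLIP peaks (vertical axis) in each of the 8 genes (horizontal axis) for the 2 Flag-MBD5 and 2 Flag-MBD6 libraries. Nsun2, Nop2 and Ybx1 have peaks in all 4 libraries, Nsun5 and Alyref in 1 library each, and the other 3 genes in none.

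By library, 3 of the 8 genes had a peak in Flag-MBD5 replicate 1 and 3 in replicate 2, against 10.1% and 9.86% of 22028 protein-coding genes, and 4 had a peak in each Flag-MBD6 library, against 16.2% and 16.5%. Nsun2, Nop2 and Ybx1 were the 3 genes with a peak in both Flag-MBD5 libraries, where 8.1% of protein-coding genes had one. The same 3 had a peak in both Flag-MBD6 libraries, where 14.1% of protein-coding genes did, and in all 4 libraries, where 7.78% did. Counting any peak in any library, the share was 5 of 8 against 19.4%. With 8 genes these counts are a description, and no test was made of them. Peaks of Flag-MBD5 and Flag-MBD6 in these genes were not equal in number, but when every library was reduced to the same number of its strongest peaks the mean was 6.5 per Flag-MBD6 library against 7.5 with Flag-MBD5.

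Genes with several sites are fewer. Nsun2 and Nop2 had 5 sites each, which 13.4% of the 4268 protein-coding genes with any site reached, the median being 2. Ybx1 had 3 sites, which 31.0% reached. Per kilobase of the main transcript, counting sites on it alone, there were 1.41 sites for Nsun2 (4 sites on 2834 nt), 1.93 for Nop2 (5 sites on 2597 nt) and 1.84 for Ybx1 (3 sites on 1628 nt). Nsun5 had 0.892 and Alyref 0.284.

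Of the 16 sites, 5 were in all 4 libraries (31.25%, against 29.5% of all sites), 4 in 3 libraries (25%, against 13.8%), 2 in 2 (12.5%, against 25.9%) and 5 in 1 (31.25%, against 30.8%). Sites found only in Flag-MBD6 libraries numbered 6 of 16 (37.5%), where 45.4% of all sites were of this kind, and 1 site was found only in a Flag-MBD5 library (6.25%, against 7.33%). With 16 sites, a site more or less moves each of these shares by 6.25 percentage points. Ybx1 site 3 is counted here as shared by 3 libraries, although its Flag-MBD5 and Flag-MBD6 peaks overlap only at their edges.

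**Figure D2:**
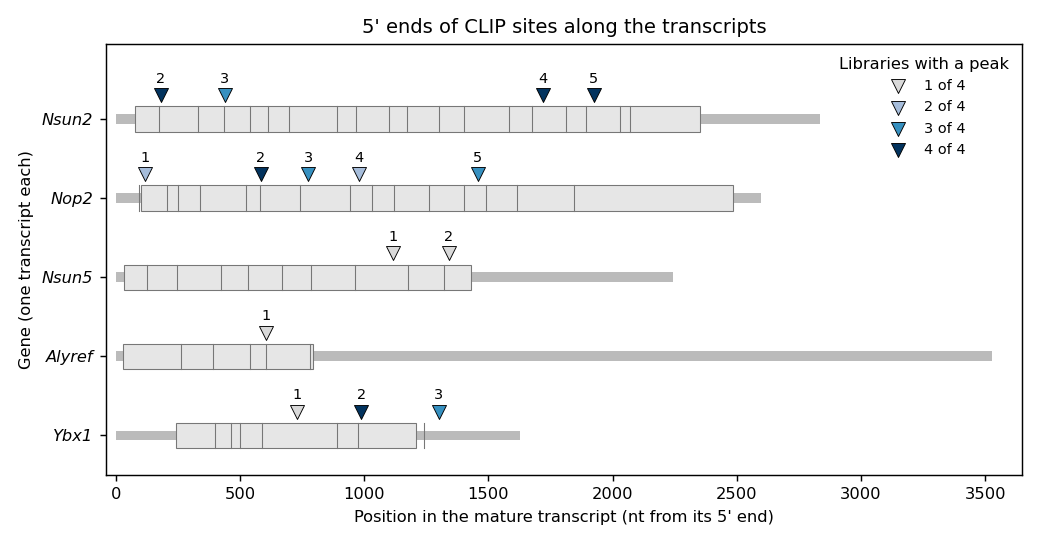
Triangles mark the 5′ end of each site in nucleotides from the start of a transcript of each gene with a peak, shaded by the number of libraries with a peak. Pale boxes are coding sequence, thin bars are untranslated regions and vertical lines are exon junctions; Nsun2 site 1 lies on another transcript and is not drawn. All sites drawn but Ybx1 site 3 begin in coding sequence, taking Nop2 site 2 from its Flag-MBD5 5′ end.

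NSUN2 is the main m5C methyltransferase of mRNA and of many transfer RNAs. Its main coding transcript has 19 exons, and 4 sites lay on exons 2, 4, 15 and 17 of it, at 4.53%, 15.8%, 72.2% and 81.2% of the coding sequence. At site 2, in exon 2, the summit held 19 and 18 reads with Flag-MBD5 and 29 and 39 with Flag-MBD6. The fold enrichment there, which is the signal over the local background given by the peak caller, was 14.1 and 13.3 with Flag-MBD5 and 18.6 and 19.1 with Flag-MBD6. This was the strongest Nsun2 site in each library by reads and by fold, and the gene body of Gm17108 overlaps it on the opposite strand.

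At site 5, in exon 17, the reads were 16 and 11 with Flag-MBD5 and 26 and 25 with Flag-MBD6, with fold enrichments of 13.1, 9.15, 16.8 and 15.4 in the same order. At site 4, in exon 15, they were 14 and 9 with Flag-MBD5 and 14 and 19 with Flag-MBD6, with folds of 11.5, 7.62, 9.31 and 11.8. Before any scaling for depth, the reads of the proteins overlapped at site 4, where both had 14, and did not overlap at sites 2 and 5.

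Site 3, in exon 4, was weaker. It held 6 reads in Flag-MBD5 replicate 1, had no peak in Flag-MBD5 replicate 2, and held 11 and 14 reads with Flag-MBD6, with folds of 5.39, 7.45 and 8.87. The 3 peaks began at the same base, which left 105 of the 106 nt of the exon downstream. Site 1 (chr13:69533833-69533982) was found in Flag-MBD6 replicate 2 only, with 12 reads and a fold of 7.69. It lay in the 5′ UTR of an alternative first exon, 78183 bp before the start of the main transcript. Tent4a overlaps it on the opposite strand, and its first 30 nt match transcripts of Anks4b, Fam217a and Timp3 with 3 mismatches each, the number that the alignment allowed.

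NOP2 is a nucleolar methyltransferase of the large ribosomal RNA. Its main coding transcript has 16 exons, and its 5 sites lay on exons 2, 7, 8, 9 and 13. Site 2, at exon 7, was the strongest Nop2 site in every library. It held 34 and 26 reads with Flag-MBD5 and 53 and 63 with Flag-MBD6, with folds of 19.6, 14.5, 28.3 and 30.6. Each Flag-MBD6 value lay above each Flag-MBD5 value, before any scaling for depth. In the Flag-MBD6 libraries the peak began 4 nt before the exon and in the Flag-MBD5 libraries at the third nucleotide of it. The printed stretch of this site occurs in the processed pseudogenes Gm18776 with 2 mismatches and Gm8525 with 3, and neither had a peak.

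The other Nop2 sites had no peak in Flag-MBD5 replicate 1. Site 3, in exon 8, held 15 reads in Flag-MBD5 replicate 2 and 21 and 25 in the Flag-MBD6 libraries, with folds of 7.0, 11.1 and 6.07. Site 5, in exon 13, held 16 reads in Flag-MBD5 replicate 2 and 25 and 22 in the Flag-MBD6 libraries, with folds of 9.96, 12.7 and 10.8. These 2 sites were thus shared by both proteins, although by 3 libraries.

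Sites 1 and 4 were in both Flag-MBD6 libraries and in neither Flag-MBD5 library. Site 1 began 17 nt into the coding sequence, at the same base in both libraries, and held 15 and 19 reads with folds of 7.57 and 8.53. Its printed stretch occurs in Gm8525 with 3 mismatches. Site 4, in exon 9, held 22 and 20 reads with folds of 11.4 and 9.85, again from a common 5′ base. Of all sites, 20.6% were in both Flag-MBD6 libraries and no Flag-MBD5 library, and 2 of the 16 here (12.5%) were. Ybx1 site 3 is counted in this as shared by both proteins.

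Nsun5 encodes another methyltransferase of the large ribosomal RNA. Its sites, on exons 8 and 10 of 10, held 10 reads each in Flag-MBD6 replicate 1, with folds of 6.61 and 6.83. No peak was called there in Flag-MBD6 replicate 2, which was the deeper library. On the reader Alyref the only peak held 10 reads in Flag-MBD6 replicate 2 with a fold of 6.91. It started at the first nucleotide of exon 5, which is 175 nt long, and was 175 bp wide. These 3 sites had the fewest reads of any in the Flag-MBD6 libraries, and their replicates had no peak.

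**Figure D3:**
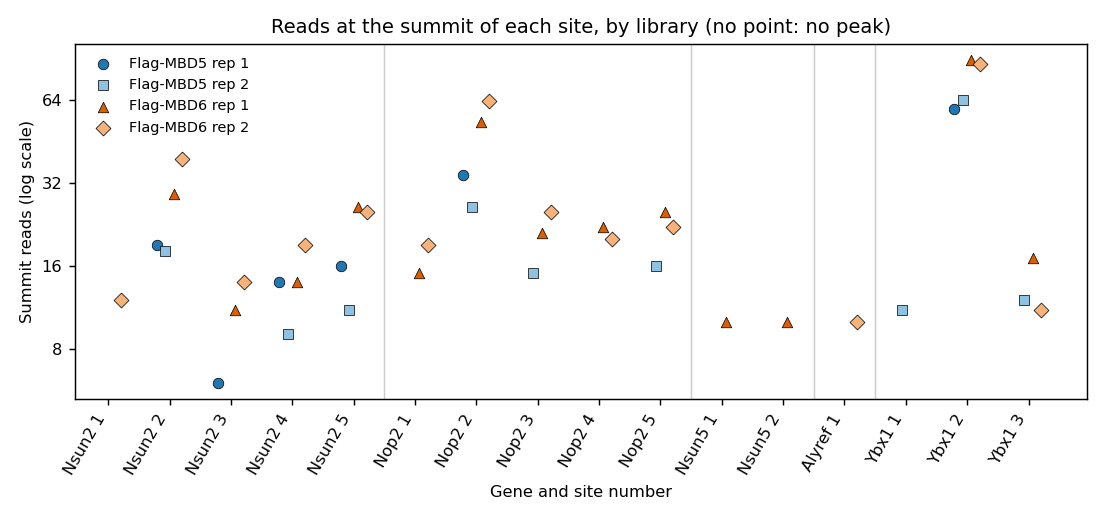
Each point is the number of reads at the summit (vertical axis, log scale) of a site (horizontal axis) in a library, and a missing point means that no peak was called. Ybx1 site 2, with 59 to 89 reads, and Nop2 site 2, with 26 to 63, stand above the remaining sites.

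Ybx1 site 2, in exon 7 of 8, held the most reads of the 16 sites. It had 59 and 64 reads with Flag-MBD5 and 89 and 86 with Flag-MBD6, and at 370 bp it was the widest site. The fold enrichment did not follow the reads: it was 44.3 and 18.5 with Flag-MBD5 and 36.5 and 12.5 with Flag-MBD6. In both proteins replicate 2 had the lower fold. The expected background at this summit was 0.354 and 2.52 reads with Flag-MBD5 and 1.46 and 5.98 with Flag-MBD6, which is 1.39, 9.50, 2.79 and 10.1 times the lowest rate of the strand in the library. Between 6.34% and 14.6% of peaks in a library had a background of at least 5 times that rate. The number of reads at Ybx1 site 2 thus differed little between replicates, while the background that divides it differed more.

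**Figure D4:**
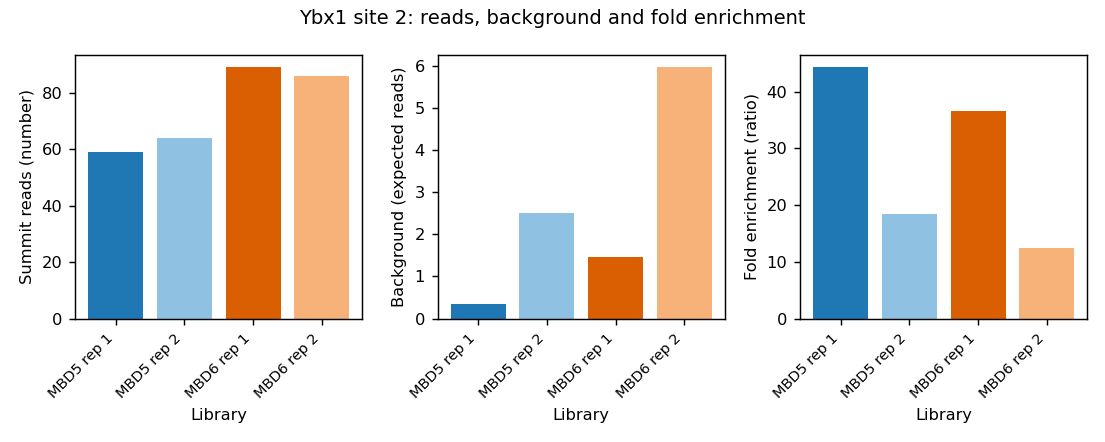
The 3 panels give, for Ybx1 site 2, the reads at the summit, the background in expected reads and the fold enrichment, with a bar per library and axes from 0. Reads are alike within each protein, background is higher in replicate 2 of each (2.52 against 0.354 and 5.98 against 1.46 reads), and fold enrichment is lower there.

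The Ybx1 reads cannot be assigned to this gene with certainty. The first 30 nt of site 2 occur unchanged in the processed pseudogene Ybx1-ps2 and with 1 to 3 mismatches in 6 other processed pseudogenes, and the alignment reported 1 position per read with up to 3 mismatches. Of these 7 pseudogenes 5 had peaks of their own, 16 in the 4 libraries. The peak on CT009755.1 held 17 reads with Flag-MBD5 in both replicates and 29 and 41 with Flag-MBD6, and the peak on Gm17909 held 17, 20, 28 and 25. Reads at these copies were fewer than at Ybx1 site 2 in each library. How reads were divided between the gene and its copies was not tested.

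Ybx1 site 3 lay in the 3′ UTR, in exon 8. It had no peak in Flag-MBD5 replicate 1, 12 reads in replicate 2, and 17 and 11 reads in the Flag-MBD6 libraries, with folds of 10.3, 7.31 and 5.75. Its 5′ ends spread over 144 nt, the widest range of the sites. The Flag-MBD5 peak (119278013-119278164) and the Flag-MBD6 peaks (119278146-119278308 and 119278146-119278298) overlapped only at their edges. The site thus joins neighbouring peaks of the proteins under the overlap of 1 bp used here. The run printed for it lies outside the Flag-MBD5 peak. Its printed stretch had no copy within 3 mismatches in another gene. Ybx1 site 1 (chr4:119282153-119282310), in exon 5, was found only in Flag-MBD5 replicate 2, with 11 reads and a fold of 9.48, and 4 of the pseudogenes hold its first 30 nt with 1 or 2 mismatches.

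The proteins were compared at the 5 sites that all 4 libraries contained. Reads were scaled so that the median log2 ratio of Flag-MBD6 over Flag-MBD5 was 0 over 3566 such sites, which took out a log2 shift of 0.762. The scaled log2 ratio was 0.12 at Nsun2 site 2 (95% interval −0.74 to 1.02), 0.16 at Nsun2 site 5 (−0.85 to 1.23) and 0.19 at Nop2 site 2 (−0.47 to 0.88). It was −0.24 at Nsun2 site 4 (−1.42 to 0.98) and −0.25 at Ybx1 site 2 (−0.74 to 0.24). None of the 5 intervals excluded 0. Among all 3566 sites, 6.84% had an interval above 0 and 8.36% below it. The intervals are exact binomial ones on the mean reads of each protein, cover counting error only, and would not resolve a difference within their width.

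The median over the 5 sites was 0.12, and the middle of all sites ran from −0.35 to 0.39 (quartiles). Summed over the 5 sites the ratio was −0.05 (−0.36 to 0.27). When the libraries were scaled by their estimated reads instead, which moves every site down by 0.336, the sum came to −0.38 (−0.70 to −0.06) and Ybx1 site 2 to −0.59 (−1.08 to −0.09), so these intervals then excluded 0. Relative to all sites, the difference between the proteins at these sites was within counting error.

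**Figure D5:**
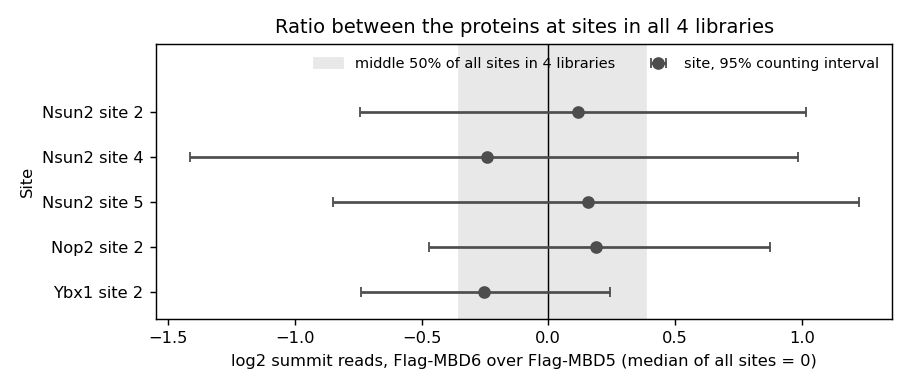
Points are the log2 ratio of summit reads, Flag-MBD6 over Flag-MBD5 (horizontal axis, median of all sites at 0), at the 5 sites found in all 4 libraries, with 95% counting intervals. The band is the middle range of all 3566 such sites, −0.35 to 0.39, and every point lies within it.

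Sites began mainly in coding sequence. By the 5′ end this held for 13 of 16 (81.25%, against 75.6% of all sites), with 1 site each in a 5′ UTR, a 3′ UTR and an intron. By the midpoint of the site it held for 10 (62.5%, against 53.8%), the reads having been extended to 150 bp without regard to exon ends. Taken 15 nt inside the 5′ end, 14 were coding (87.5%, against 78.7%).

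G stood just before the 5′ end of 11 of the 15 sites that could be read in a transcript (73.3%, against 75.2% of 11049 sites), C before 3 (20%, against 19.1%) and T before 1. RNase T1, with which the RNA was digested, cuts after G. Of the 11 sites in more than 1 library, 3 began at the same base in each (27.3%, against 14.9% of such sites), 7 lay within 10 nt (63.6%, against 53.3%), and the median range was 7 nt against 9 nt.

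The first 30 nt of the 15 readable sites contained 34.7% A (95% interval 30.3 to 39.3) and 14.2% T. Nop2 site 2, whose merged 5′ end lies in an intron, is not among them or in the Nop2 shares below. The interval takes each of the 450 bases as independent and does not cover differences between windows. By window, A ran from 23.3% to 43.3%. All 30-nt windows in the coding sequence of the 5 genes contained 25.6% A and 19.3% T. Across all sites of the libraries A was 36.8% and T 16.1%. Pooled over the genes, the windows thus had more A and less T than these coding windows, although 2 of the 15 lay in untranslated regions (Nsun2 site 1 and Ybx1 site 3). By gene, A made up 36.7% of the Nsun2 windows against 28.4% of the Nsun2 coding sequence, 30.8% against 25.3% in Nop2 and 33.3% against 28.8% in Ybx1. T made up 13.3% of the Nsun2 windows against 21.2% of the coding sequence and 15% against 19.5% in Nop2, but 17.8% against 14.4% in Ybx1. The Ybx1 share rests on site 3, in the 3′ UTR, with 10 T in its 30 nt. Ybx1 sites 1 and 2, in coding sequence, had 3 T each. Nsun2 site 1, in a 5′ UTR, had 0 T.

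A CpG occurred in 11 of the 15 windows (73.3%), against 59.0% of all sites and 63.5% of the coding windows of the 5 genes. The runs printed above for Nsun2 site 3, Nop2 site 2, Ybx1 site 2 and Ybx1 site 3 have none, and the strongest sites of Nop2 and Ybx1 are among these. Nop2 site 2 is not one of the 15 windows, so the share of 73.3% leaves it out. The motif CNGGG was in 0 of 15 windows, where 7.66% of all sites and 13.6% of coding windows had it. The motif CTCCA was in 1 of 15, Nop2 site 5, where 4.55% of all sites had it. Both were sought on the transcript strand alone, no window held both, and they are the sequence contexts known for m5C set in mRNA by NSUN2 and NSUN6. With 15 windows a share of a few percent is not resolved.

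Genes were ranked by likeness to Nsun2, the member with most peaks, as the distance between log2 summed summit reads over the 4 libraries, among the 1702 protein-coding genes that had a peak in each library and were neither members nor on the list of other pathway genes. Nsun2 had sums of 55 and 38 with Flag-MBD5 and 80 and 109 with Flag-MBD6. The nearest was Kat7, a histone acetyltransferase, with 50, 42, 85 and 102 (distance 0.238), followed by Wnk1, a kinase of ion transport, with 57, 34, 99 and 110 (0.351), and Ube3a, a ubiquitin ligase, with 55, 47, 91 and 116 (0.370). The sums for Nop2 were 34, 57, 136 and 149 and for Ybx1 59, 87, 106 and 97.

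Other genes of the pathway were looked up from a list of 17. Of these, 9 had a peak in both Flag-MBD5 libraries, 11 in both Flag-MBD6 libraries and 12 in any library, where 8.1%, 14.1% and 19.4% of protein-coding genes did, and 5 had none. Neither of the other NOP2/Sun family methyltransferases, Nsun3 and Nsun7, had any peak. Among the enzymes that oxidise 5-methylcytosine, Tet1 had 9 and 6 peaks with Flag-MBD5 and 12 and 11 with Flag-MBD6, Tet2 had 2, 3, 5 and 4, Alkbh1 had 1 in each library, and Tet3 had none. The cold-shock protein gene Ybx3 had 4 peaks in each Flag-MBD5 library and 5 in each Flag-MBD6 library, while Ybx2 and Ythdf2 had none. The remaining proposed readers on the list were Fmr1, Srsf2, Lin28b, Rad52 and Smn1. The counts over the 17 also include genes of proteins of the study. Mbd5 had 2 and 1 peaks with Flag-MBD5 and 1 and 2 with Flag-MBD6. Pspc1 had 3, 3, 4 and 3 in the same order, and Mbd6 had 1, in Flag-MBD6 replicate 2. Peaks thus lay on some and not on other genes of the writers (2 of 6 members in all 4 libraries), the oxidising enzymes (3 of 4) and the other proposed readers (4 of 8), the share over protein-coding genes being 7.78%.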

How the data were processed

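CLIP libraries of Flag-MBD5 and Flag-MBD6 (2 each, labelled replicates) were analysed from the peak lists that the authors deposited. Per the study's methods and the submitters' processing notes, the authors filtered, clipped and collapsed the reads, kept those over 15 nt, removed ribosomal RNA, aligned them without splicing to mm10 with Bowtie 1.0.0 (at most 3 mismatches and 10 hits, 1 reported), split them by strand with SAMtools 1.16.1 and called peaks per library and strand with MACS2 (version 2, extension 150 bp, genome size 130000000, at most 5 reads per position, q under 0.01). The deposited score is a multiple of −log10 q. The deposited fold enrichment is the ratio of the summit signal to the background, both with 1 added. Whether the input served as the control for that background is not given in the sources used here. Each peak also has a deposited −log10 of its p-value and q-value, and the deposited summit column is a position within it.

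Here, the whole number of summit reads and the Poisson background rate that give both the fold enrichment and −log10 p were solved for each peak, which succeeded for 100% of peaks (tolerance 0.01%). Library totals were estimated from the lowest background rate. Peaks were joined into sites at an overlap of 1 bp. The main transcript of a gene was its APPRIS principal coding transcript, or else the longest with the best annotation tags. Site classes and sequence came from GENCODE M21, with the transcript position of the 5′ end deciding the class in the order coding, 5′ UTR, 3′ UTR, non-coding exon, intron. Copies of the first 30 nt were sought in transcripts of other genes with up to 3 mismatches. Intervals are exact binomial at 95%. For the ratios they are on read counts without molecular identifiers, and for the share of A they are on bases. With 2 libraries per protein an exact permutation test could not pass the threshold and the replicates differed by less than sampling noise, so no test over libraries was made. All 8 genes were named, the 17 pathway genes were looked up whatever their values, the 3 genes most like the member with most peaks were ranked by distance, and sequences are those of sites in both libraries of a protein. The members, lists and tests were chosen with earlier results of these data known. Alternatives varied the q threshold, fold minimum, number of peaks, overlap, assignment to genes, scaling and window, and left out each library. Deviations between replicates, matched by replicate number, had a correlation of 0.03 between the proteins. They were below sampling noise, so this cannot show whether the numbers pair the libraries. The solver was tested on simulated data. Python 3.11.15, NumPy 2.4.6, SciPy 1.17.1, pandas 2.3.3 and matplotlib 3.10.9 were used.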

Additional observations from a re-analysis of the deposited data

How the results depend on the processing

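Of 37 values recomputed under other settings, 35 were counted as kept, and of 32 values with a library left out, 30 were. A value counted as kept could still differ. Sites beginning in coding sequence went from 13 to 10 by the midpoint, and sites in all 4 libraries from 5 to 4 with lists of equal length. The lowest −log10 q of a peak in the 8 genes was 3.84 and the lowest fold 5.39. A q threshold of 0.001 or a fold minimum of 4 therefore could not change their counts of peaks, genes and sites. When the lists were shortened to equal length, the mean number of Flag-MBD6 peaks in the 8 genes was 6.5 in place of 13, which the construction gives by dropping its weaker peaks. With scaling by estimated reads, the log2 ratio summed over the 5 common sites was −0.38 in place of −0.05. Without Flag-MBD5 replicate 1 the sites in all remaining libraries numbered 8 in place of 5, as fewer libraries had to agree; over all such omissions they ranged from 5 to 8. The median fold enrichment of Flag-MBD6 at the common sites was 18.9 with both libraries and 15.4 without replicate 1. This last value was counted as moved, and without replicate 2 the median was 18.6. For Flag-MBD5 the median was 13.7 with both libraries and ranged from 13.3 to 14.1 with a Flag-MBD5 library left out. The other omissions gave 6 to 9 Flag-MBD5 peaks and 13 Flag-MBD6 peaks, 3 and 4 genes with peaks in the remaining library of Flag-MBD5 and Flag-MBD6, a summed log2 ratio of −0.14 to 0.04, 11 to 13 sites beginning in coding sequence, 10 or 11 with G before the 5′ end, and 34.1% to 34.7% A. A replicate block, with libraries paired by number, gave a summed log2 ratio of −0.044, without an interval. Whether the numbers pair the libraries is not known.

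Depth limits what can be seen. The smallest summit of any called peak held 5 reads in Flag-MBD5 and 6 in Flag-MBD6, and more reads were needed where the background was higher. At the Nop2 peaks of Flag-MBD5 the background was 2.27 to 4.12 times the lowest rate of the strand. The Flag-MBD5 libraries were also shallower, so a site missing there can have reads below the threshold. The antibody is not given alike in the labels and the methods, and no transcript levels or input libraries were analysed here, so a count of peaks cannot be set against the amount of RNA.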
